A study of Mus musculus with 4 samples.

Results

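The 10 genes described here cover the entry of hexoses into brain cells, their breakdown to pyruvate and the exchange of lactate. They are Slc2a5, Slc2a1, Slc2a3, Hk1, Hk2, Pfkp, Pkm, Ldha, Ldhb and Slc16a1, taken by symbol from the 27998 genes of the files, and all 10 were found in each of 4 libraries. The set was chosen by measured values of these same libraries, above all the lower level of Slc2a5 in microglia of both libraries with P301S. The values of Slc2a5 are therefore a description and support nothing.

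The study measured RNA in nuclei of mouse hippocampus with droplet 3′ sequencing (10x), and its title concerns low-density lipoprotein receptor overexpression, tau-related neurodegeneration and apoE. The 4 libraries used here came from B6 mice at 9 months: P301S/EKO (7 hippocampi pooled), P301S (8 pooled), EKO (7 pooled) and WT (7 pooled). EKO mice lack Apoe, and the mice named P301S carry mutant human tau. The mouse line and the promoter of the transgene are not named in the labels, and further genotypes of the series were not analysed here. Each genotype had 1 library, so no test between genotypes was possible, and every interval below is a 95% interval for counting error only.

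Glucose crosses the blood-brain barrier and enters glia through the carrier GLUT1 (Slc2a1) and enters neurons mainly through GLUT3 (Slc2a3), while GLUT5 (Slc2a5) is a fructose carrier that marks microglia in the brain. Hexokinases (Hk1, Hk2) trap the sugar as its phosphate, phosphofructokinase (Pfkp is its platelet-type subunit) commits it to glycolysis, and pyruvate kinase (Pkm) ends the route. Lactate dehydrogenase, built from Ldha and Ldhb subunits, interconverts pyruvate and lactate, and the monocarboxylate carrier MCT1 (Slc16a1) moves lactate across membranes.

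After filtering, 5327 nuclei were kept in P301S/EKO, 2865 in P301S, 5222 in EKO and 5263 in WT, with median counts of 1424, 2142, 1445 and 1904 unique molecular identifiers (UMIs) per nucleus in that order. Library pairs shared 19 to 69 cell barcodes, 0.602 to 1.15% of the smaller library. Apoe stood at 19.9 counts per 1000000 UMIs (CPM) in P301S/EKO, 6403 CPM in P301S, 16.3 CPM in EKO and 1935 CPM in WT, as the labels say. Clustering without the 10 genes gave 16 clusters, of which 3 had no name, and 10 classes with a name were compared. Microglia-like nuclei carried much neuronal RNA: 7 neuronal transcripts summed to 21870, 21550, 20380 and 25700 CPM in P301S/EKO, P301S, EKO and WT, against 34320 to 39760 CPM in CA1 neuron-like nuclei. Nuclei outside the neuron classes with over 50% of the neuronal share of a median CA1 neuron-like nucleus are called mixed; they made up 50.3%, 56.5%, 43.3% and 77.1% of microglia-like nuclei in the same order. All 12 microglia markers were present in that class in each library.

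The 250 bases before the transcript start were read for 9 of the 10 genes from RefSeq promoters (GRCm38.p6); Slc2a3 is named only. They were searched on both strands for ACGTG, the core bound by hypoxia-inducible factors, which are textbook regulators of glycolysis, and for GAGGAA, the core bound by the myeloid factor PU.1. ACGTG (or CACGT on the other strand) lay in 5 of the 12 windows of these 9 genes, of which Hk1, Ldha and Pkm have more than 1, namely in Hk2, Ldha, Pkm, Slc16a1 and Slc2a1, and in 16.6% of all 32851 windows of that length. GAGGAA lay in 1 of the 12 windows, that of Hk1, and in 23.3% of all windows. A match is a description of the letters and says nothing of binding. The windows of 4 genes that the results below turn on are shown 5′ to 3′ on the gene's strand, with ACGTG and CACGT in capitals; the window of Slc2a5, which holds no match, stops before the annotated gene start, and a second Ldha window, also with no match, is not shown.
Slc2a5, chr4:150119094-150119282 on the plus strand: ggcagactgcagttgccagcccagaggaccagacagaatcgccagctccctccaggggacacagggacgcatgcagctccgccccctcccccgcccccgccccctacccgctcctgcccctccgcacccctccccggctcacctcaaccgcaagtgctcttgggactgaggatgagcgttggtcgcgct
Hk2, chr6:82774455-82774704 on the minus strand: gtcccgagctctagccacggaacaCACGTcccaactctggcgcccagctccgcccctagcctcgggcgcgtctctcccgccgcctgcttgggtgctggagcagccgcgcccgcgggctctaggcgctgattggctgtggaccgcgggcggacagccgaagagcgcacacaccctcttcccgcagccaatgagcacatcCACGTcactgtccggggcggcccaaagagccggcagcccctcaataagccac
Ldha, chr7:46845554-46845803 on the plus strand: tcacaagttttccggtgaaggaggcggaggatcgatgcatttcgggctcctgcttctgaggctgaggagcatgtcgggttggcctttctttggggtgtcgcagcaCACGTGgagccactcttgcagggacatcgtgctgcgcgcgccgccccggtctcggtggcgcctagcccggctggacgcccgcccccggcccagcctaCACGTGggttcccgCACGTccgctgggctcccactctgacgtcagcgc
Slc16a1, chr3:104638414-104638663 on the plus strand: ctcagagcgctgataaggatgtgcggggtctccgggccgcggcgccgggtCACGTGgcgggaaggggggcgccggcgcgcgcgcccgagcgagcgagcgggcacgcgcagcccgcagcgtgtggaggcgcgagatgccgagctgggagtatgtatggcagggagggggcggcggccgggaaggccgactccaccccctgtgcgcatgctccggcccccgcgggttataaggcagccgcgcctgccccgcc

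The hexose carriers were highest in different cell classes. Slc2a5 (chr4:150119283-150144169, GRCm38) averaged 62.8 ± 45.2 CPM in microglia-like nuclei (SD over the 4 libraries, which differ in genotype), and the next class, endothelial cell-like nuclei, averaged 3.44 CPM with 0 UMIs in both P301S and WT. In neuron-like nuclei Slc2a5 stood at 1.68, 0.796, 1.67 and 1.44 CPM in P301S/EKO, P301S, EKO and WT. Slc2a1 averaged 854 ± 57.6 CPM in endothelial cell-like nuclei and 104 ± 11.7 CPM in astrocyte-like nuclei, and the ranges of these classes over the libraries did not overlap. Slc2a3 had no such leader: neighbouring classes overlapped along the whole order, the named neuron classes averaged 69.1 to 81.9 CPM, and astrocyte-like nuclei averaged 33.6 ± 19.0 CPM.

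The hexokinases differed in the same way. Hk2 averaged 219 ± 86.8 CPM in microglia-like nuclei, whose lowest library stood above the highest library of the next class, astrocyte-like nuclei, at 19.4 ± 5.92 CPM. Hk2 was among the 10 genes with the highest fold in the microglia-like cluster although it was left out of the clustering. Hk1 stood between 43.6 and 75.7 CPM on average in all classes, with overlapping ranges between neighbours. Among the remaining enzymes, Ldhb averaged 445 ± 119 CPM in astrocyte-like nuclei, above every library of the next class, inhibitory neuron-like nuclei, at 213 ± 26.2 CPM. Pkm, Ldha and Slc16a1 were highest on average in endothelial cell-like nuclei, at 451 ± 53.8, 224 ± 43.4 and 134 ± 48.5 CPM, but their ranges there overlapped those of astrocyte-like nuclei. For Pfkp, a cluster with no name led by Ctgf and Nxph3 (191 ± 21.2 CPM) overlapped astrocyte-like nuclei (171 ± 66.8 CPM).

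**Figure D1:**
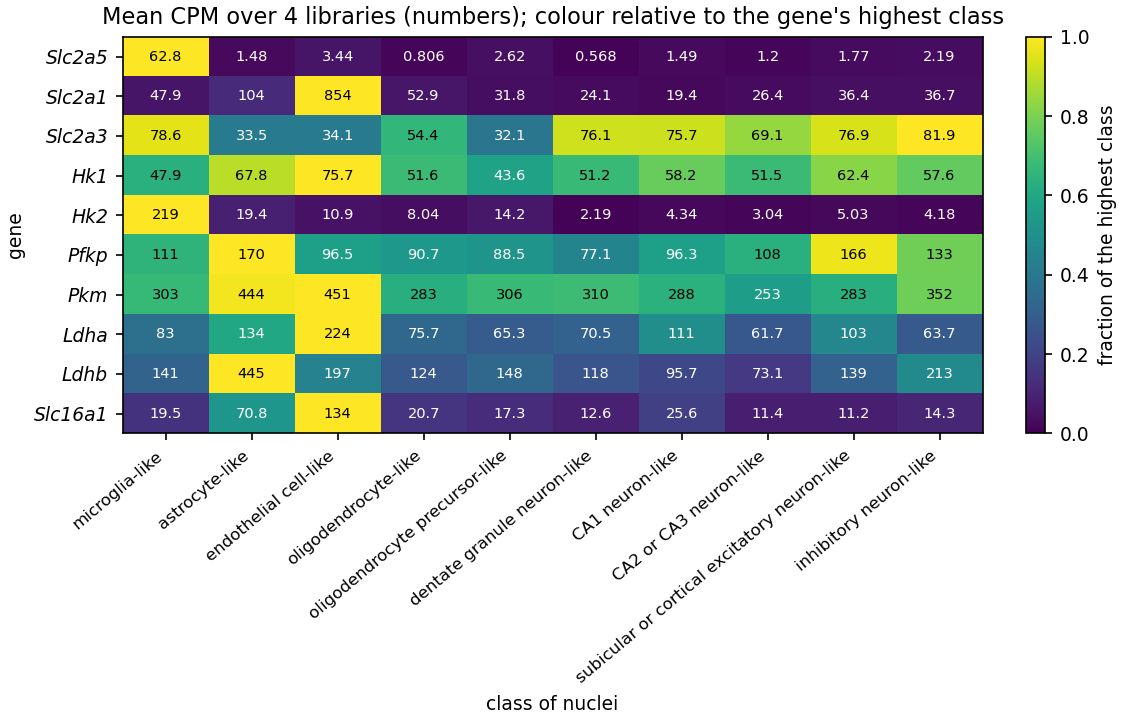
Mean level of each of the 10 genes in the 10 named classes, in CPM over 4 libraries (numbers), with colour as the fraction of the gene's own highest class among them. Slc2a5 and Hk2 are brightest in microglia-like nuclei, Slc2a1 in endothelial cell-like nuclei and Ldhb in astrocyte-like nuclei, while Slc2a3 and Hk1 are spread over many classes.

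Over the 10 named classes, P301S over WT gave 76 gene and class pairs with at least 20 UMIs over both libraries, of which 12 were at least 1.5-fold higher and 7 at least 1.5-fold lower. Among all gene and class pairs of that comparison, 17.0% were higher and 9.66% lower by the same fold. P301S/EKO over EKO gave 8 higher and 1 lower of 74 pairs, against 10.9% and 8.84% of all pairs. EKO over WT gave 5 higher and 7 lower of 77, against 9.80% and 12.6%, and P301S/EKO over P301S gave 7 higher and 2 lower of 75, against 8.71% and 17.3%. In P301S over WT the shares among the 10 genes were near those of all genes, while lower pairs were fewer than among all genes in P301S/EKO over EKO and in P301S/EKO over P301S; these differences in share were not tested. Comparisons that use the same library share its error.

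In microglia-like nuclei, 346 in P301S/EKO, 324 in P301S, 141 in EKO and 214 in WT, Slc2a5 was lower with the transgene on both Apoe backgrounds. Slc2a5 had 27 UMIs in P301S/EKO (33.3 CPM, interval 21.9 to 48.4), 27 in P301S (19.3 CPM, 12.7 to 28.0), 38 in EKO (118 CPM, 83.4 to 162) and 82 in WT (80.9 CPM, 64.4 to 100.4). Both libraries with P301S lay below both libraries without it, with no overlap of the counting intervals. P301S over WT was 4.20-fold lower (interval 2.69 to 6.75), and P301S/EKO over EKO was 3.54-fold lower (2.11 to 6.04). EKO over WT was a ratio of 1.46 (0.964 to 2.16) and P301S/EKO over P301S a ratio of 1.73 (0.974 to 3.06), both with intervals that include 1. Without mixed nuclei Slc2a5 stood at 40.4, 31.3, 137 and 138 CPM in P301S/EKO, P301S, EKO and WT, P301S over WT was 4.41-fold lower, and P301S/EKO over P301S came to 1.29. By the level of the 7 neuronal transcripts, free RNA could make up 72.8%, 71.4%, 60.0% and 85.1% of the UMIs of this class in P301S/EKO, P301S, EKO and WT. With that share subtracted P301S over WT was 8.36-fold lower, and EKO over WT turned to a ratio of 0.596.

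In shares of nuclei, too, both libraries with P301S lay below both without it, though the order within each pair differed from that of the CPM values. A Slc2a5 UMI was seen in 7.51% of microglia-like nuclei in P301S/EKO (exact interval 4.97 to 10.8), 7.72% in P301S (5.06 to 11.2), 22.0% in EKO (15.5 to 29.7) and 29.4% in WT (23.4 to 36.0). With each nucleus thinned to 1000 UMIs, and 63, 0, 25 and 1 shallower nuclei left out, the shares were 4.59%, 2.47%, 11.2% and 8.45%. The thinned shares in neuron-like nuclei, which should lack the carrier, were 0.0884 to 0.159%. Before thinning, the median depth of microglia-like nuclei was 1809, 3262, 1871 and 3949.5 UMIs.

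Hk2 (chr6:82725025-82774454) lay the other way. It had 236 UMIs in P301S/EKO (291 CPM, interval 255 to 330.2), 396 in P301S (283 CPM, 255 to 312), 63 in EKO (195 CPM, 150.1 to 250) and 107 in WT (106 CPM, 86.5 to 128). P301S over WT was 2.68-fold (2.16 to 3.35), P301S/EKO over EKO was 1.49-fold (1.12 to 2.00) and P301S/EKO over P301S was 1.03-fold (0.872 to 1.21). EKO over WT was 1.85-fold (1.33 to 2.55), but 0.948 without mixed nuclei, so that its direction turned. Without mixed nuclei Hk2 stood at 396, 453, 233 and 246 CPM in P301S/EKO, P301S, EKO and WT, and P301S over WT was 1.84-fold.

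Both genes were highest in microglia-like nuclei, so they were also set against each other and against the markers of that class, a denominator without neuronal transcripts; this choice was made after the values were seen. Slc2a5 made up 10.3% of the UMIs of Slc2a5 and Hk2 together in P301S/EKO (exact interval 6.88 to 14.6), 6.38% in P301S (4.25 to 9.15), 37.6% in EKO (28.2 to 47.8) and 43.4% in WT (36.2 to 50.8). Without mixed nuclei these shares were 9.24%, 6.47%, 37.0% and 36.0%. The libraries formed a low pair with P301S and a high pair without it, whichever nuclei were used. Per 1000 UMIs of the 12 microglia markers, Slc2a5 had 4.43, 3.42, 15.9 and 23.1 UMIs and Hk2 had 38.7, 50.2, 26.4 and 30.2 UMIs in P301S/EKO, P301S, EKO and WT. Without mixed nuclei Slc2a5 had 3.77, 3.90, 14.6 and 25.1 UMIs per 1000 in the same order. Hk2 then had 37.0, 56.4, 24.8 and 44.7, so that by this measure P301S/EKO no longer lay above WT for Hk2. P2ry12, a receptor of resting microglia, was itself 2.91-fold lower in P301S over WT.

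**Figure D2:**
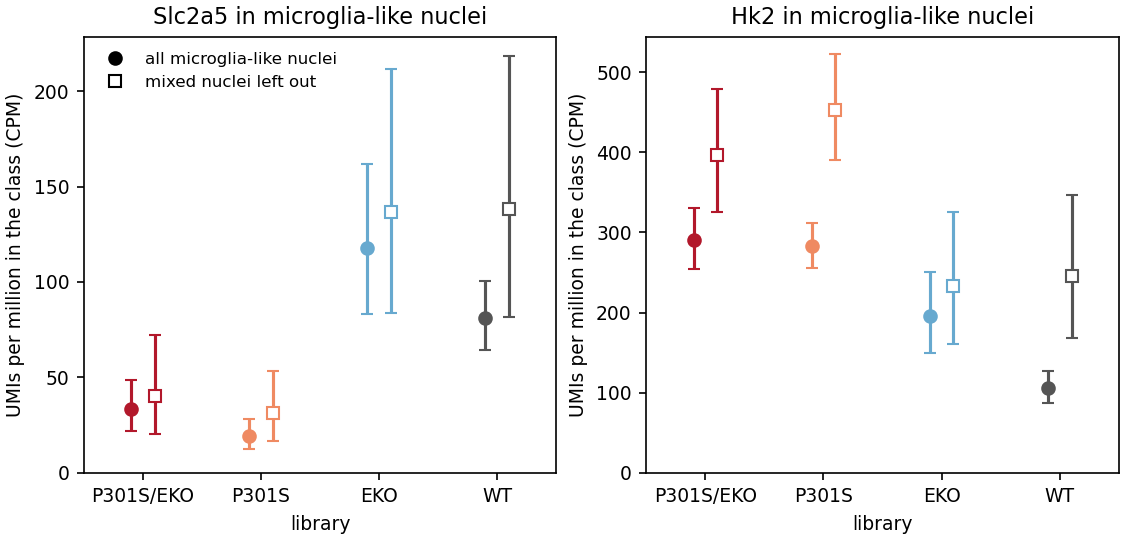
Slc2a5 (left) and Hk2 (right) in microglia-like nuclei of each library, in CPM with 95% Poisson intervals; filled circles show all nuclei of the class and open squares the class without mixed nuclei. For Slc2a5 the libraries with P301S (33.3 and 19.3 CPM) sit below EKO and WT (118 and 80.9 CPM), and for Hk2 WT is lowest with all nuclei but level with EKO without mixed ones.

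Lists of transcripts tied to microglial state were also summed in microglia-like nuclei. The 19 disease-associated microglia transcripts found in the files summed to 4862, 6249, 3259 and 1856 CPM in P301S/EKO, P301S, EKO and WT, and the 13 homeostatic transcripts to 4272, 2516, 5235 and 2658 CPM. The disease-associated sum was higher in both libraries with P301S. The homeostatic sum did not follow Slc2a5: P301S and WT were close, and P301S/EKO lay above WT. Microglia-like nuclei were then split by whether they held a UMI of 11 genes of the disease list that disease-associated microglia induce (such as Spp1, Cst7 and Itgax), a choice made after the values were seen. In P301S/EKO, Slc2a5 stood at 16.3 CPM (4.43 to 41.6) in the 92 nuclei with such a UMI and at 40.6 CPM (25.8 to 61.0) in the 254 without. In P301S it stood at 15.9 CPM (9.58 to 24.9) in 253 nuclei with and 38.6 CPM (16.7 to 76.0) in 71 without. In EKO it stood at 123 CPM (49.5 to 254) in 17 nuclei with and in WT at 63.1 CPM (39.5 to 95.5) in 52 nuclei with. Spp1, Cst7 and Itgax had only 3, 1 and 0 UMIs in EKO and 5, 0 and 0 in WT. Most nuclei with such a UMI in EKO and WT therefore held others of the 11 genes, and they are not taken as disease-associated microglia. The intervals of the nuclei with and without overlapped in all 4 libraries, EKO was not lower with than without, and nuclei with such a UMI were deeper. Among nuclei without such a UMI, Slc2a5 was at 40.6 and 38.6 CPM in P301S/EKO and P301S, and at 117 CPM (79.3 to 166) in EKO and 90.3 CPM (68.9 to 116) in WT.

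The other 8 genes are given by comparison. In P301S over WT, of all 10 measured genes 1 was at least 1.5-fold higher (Hk2) and 1 lower (Slc2a5), where 18.9% of 10509 genes were higher and 8.61% lower. Slc2a1, Slc2a3, Hk1, Pfkp, Ldha, Ldhb and Slc16a1 had ratios between 0.772 and 1.36, all with intervals that include 1, and Pkm had a ratio of 0.684 (0.592 to 0.791). Without mixed nuclei, which leaves 141 nuclei in P301S and 49 in WT, 5 of 9 measured genes were lower and 1 higher: besides Slc2a5, Pkm was 1.83-fold lower (1.29 to 2.57), and Hk1, Pfkp and Ldhb were 1.99-fold, 1.59-fold and 1.62-fold lower with intervals that include 1. The share of all genes past 1.5-fold was not computed without mixed nuclei, so this count cannot be set against all genes. P301S/EKO over EKO had 1 higher and 1 lower, against 15.5% and 9.95% of all genes; the higher one, Ldhb, stood at 150.2 CPM in P301S/EKO and 96.1 CPM in EKO (1.56-fold, 1.05 to 2.40), but was 1.47-fold without mixed nuclei, when Hk2 (1.70-fold) and Pkm (1.83-fold) were past the limit instead. In EKO over WT, Pkm stood at 239 CPM in EKO and 387 CPM in WT (1.62-fold lower, 1.27 to 2.10), and Ldhb at 96.1 CPM in EKO and 169 CPM in WT (1.76-fold lower, 1.19 to 2.66). Together with Hk2 that made 1 higher and 2 lower, against 11.6% and 18.7% of all genes, and neuronal transcripts were lower too (20380 CPM in EKO and 25700 CPM in WT). Their part in the values of Pkm and Ldhb was not tested apart from leaving out mixed nuclei, which gave 2.57-fold lower for Pkm. Between P301S/EKO and P301S, Slc2a5 was past 1.5-fold and none of the other 9, against 6.84% higher and 18.9% lower of all genes.

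**Figure D3:**
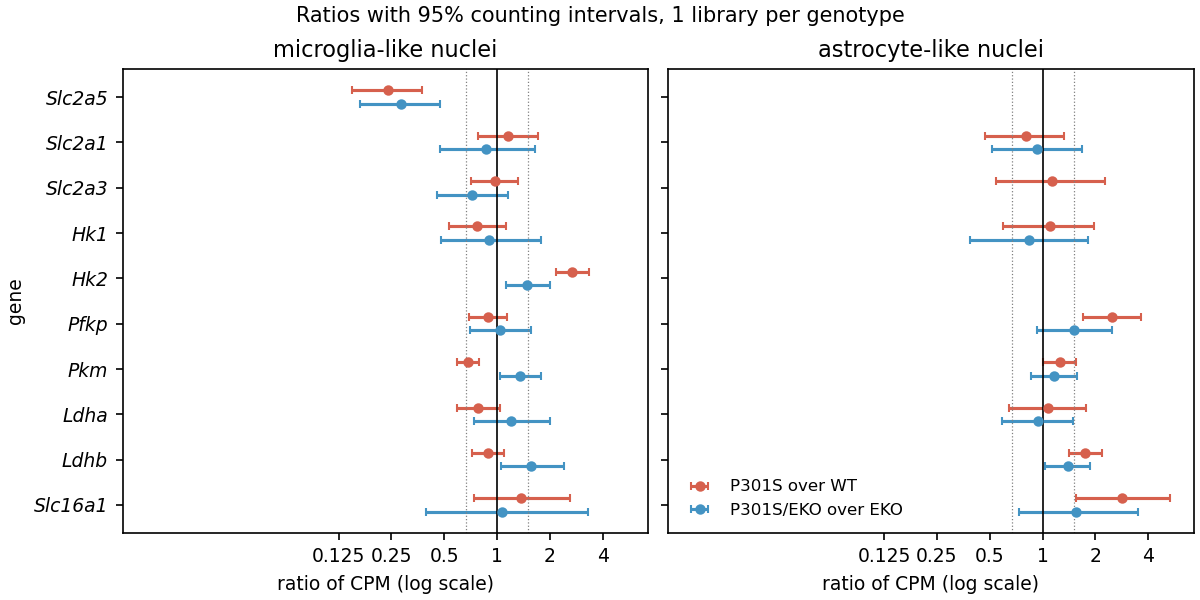
Ratio of CPM on a log scale, P301S over WT (red) and P301S/EKO over EKO (blue), for the 10 genes in microglia-like (left) and astrocyte-like (right) nuclei, with 95% counting intervals and dotted lines at 1.5-fold; pairs under 20 UMIs are left out. In microglia-like nuclei Slc2a5 lies below 1 in both comparisons, and in astrocyte-like nuclei Pfkp and Slc16a1 lie past 1.5-fold in both, with intervals that reach 1 in P301S/EKO over EKO.

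In astrocyte-like nuclei, 204 in P301S/EKO, 120 in P301S, 202 in EKO and 291 in WT, Pfkp and Slc16a1 were higher in P301S over WT, and P301S/EKO over EKO lay in the same direction with intervals that include 1. Pfkp (chr13:6579768-6648777) had 49 UMIs in P301S/EKO (199 CPM), 66 in P301S (249.7 CPM), 29 in EKO (132 CPM) and 54 in WT (101 CPM). Slc16a1 (chr3:104638668-104658462) had 21 UMIs in P301S/EKO (85.3 CPM), 28 in P301S (106 CPM), 12 in EKO (54.7 CPM) and 20 in WT (37.4 CPM). For both genes the libraries with P301S lay above those without it. P301S over WT was 2.47-fold (1.70 to 3.61) for Pfkp and 2.83-fold (1.54 to 5.31) for Slc16a1. P301S/EKO over EKO was 1.51-fold (0.932 to 2.47) for Pfkp and 1.56-fold (0.732 to 3.48) for Slc16a1, so that on the background without Apoe the counting error does not separate either from no difference. Without mixed nuclei these ratios of P301S/EKO over EKO were 1.43 for Pfkp, under the 1.5-fold limit, and 1.66 for Slc16a1.

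Ldhb, the subunit more abundant in heart, followed the same order of libraries, with 499.5 CPM in P301S/EKO, 587 CPM in P301S, 360 CPM in EKO and 335 CPM in WT. P301S over WT was 1.75-fold (1.40 to 2.19) and P301S/EKO over EKO 1.39-fold (1.04 to 1.86), the second under the 1.5-fold limit. These made 3 genes higher and 0 lower of 8 measured in P301S over WT, where 23.6% of 6298 genes were higher and 17.8% lower. P301S/EKO over EKO had 2 higher and 0 lower of 7, against 18.9% and 15.4%. Pkm was at 439, 534, 379 and 426 CPM in P301S/EKO, P301S, EKO and WT and within 1.5-fold in every comparison.

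Ldha, the subunit more abundant in muscle, was instead higher in both libraries without Apoe. It had 41 UMIs in P301S/EKO (167 CPM, interval 119.5 to 226), 26 in P301S (98.4 CPM, 64.3 to 144), 39 in EKO (178 CPM, 127 to 243) and 49 in WT (91.6 CPM, 67.8 to 121). EKO over WT was 1.94-fold (1.24 to 3.02), and P301S/EKO over P301S was 1.69-fold (1.01 to 2.88). The libraries without Apoe were also the shallower ones in this class, with median depths of 982 UMIs in P301S/EKO, 1675.5 in P301S, 819.5 in EKO and 1489 in WT. With nuclei thinned to 1000 UMIs, and 106, 0, 136 and 24 shallower nuclei left out, a Ldha UMI was seen in 16.3%, 9.17%, 15.2% and 8.24% of nuclei in P301S/EKO, P301S, EKO and WT. These shares were again higher in the libraries without Apoe. Those libraries lost most of their nuclei to this step (106 of 204 in P301S/EKO and 136 of 202 in EKO), so the sets are unlike, and the part of depth was not tested. In the same thinned nuclei Pfkp was seen in 18.4%, 26.7%, 6.06% and 11.2% and Slc16a1 in 5.10%, 10.8%, 6.06% and 3.37%, so for Slc16a1, at 5 and 4 nuclei in P301S/EKO and EKO, P301S/EKO no longer lay above EKO. In EKO over WT 1 of 8 measured genes was higher and 1 lower, against 15.6% and 18.2% of all genes, the lower one being Slc2a3 with 4 UMIs in EKO and 25 in WT. Between P301S/EKO and P301S, Ldha alone was past 1.5-fold, of 7 measured genes, against 13.5% higher and 18.0% lower.

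RNA of other cells moved with these comparisons in astrocyte-like nuclei. Neuronal transcripts summed to 4820, 5899, 4770 and 11600 CPM, and the 12 microglia markers to 467, 715, 251 and 256 CPM, in P301S/EKO, P301S, EKO and WT. With mixed nuclei left out, P301S over WT was 2.62-fold for Pfkp, 2.53-fold for Slc16a1 and 1.56-fold for Ldhb, and EKO over WT was 1.90-fold for Ldha. Pfkp overlaps Pitrm1 on the opposite strand, and whether reads were assigned by strand is not given in the sources used here; Pitrm1 had 10 UMIs in P301S and 12 in WT, with a ratio of 1.69 (0.653 to 4.26). Ldha has 2 named pseudogenes in the annotation, so its counts could be split between copies.

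**Figure D4:**
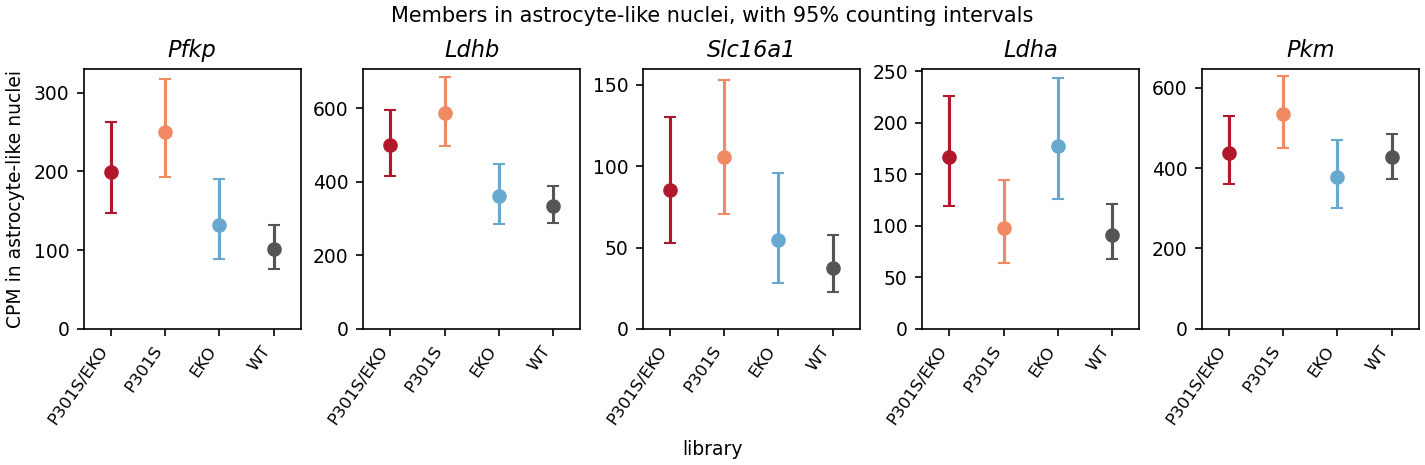
Pfkp, Ldhb, Slc16a1, Ldha and Pkm in astrocyte-like nuclei of each library, in CPM with 95% Poisson intervals. Pfkp, Ldhb and Slc16a1 are highest in P301S and next in P301S/EKO, while Ldha stands at 167 and 178 CPM in P301S/EKO and EKO and at 98.4 and 91.6 CPM in P301S and WT.

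The endothelial cell-like class, 100 nuclei in P301S/EKO, 130 in P301S, 119 in EKO and 163 in WT, was of mixed make-up. At a finer clustering (Leiden resolution 2) 49.0%, 42.3%, 54.6% and 29.5% of its nuclei in that order fell into a fibroblast-like cluster led by Slc6a13, Pcolce and Vtn (read apart after the values were seen). Slc2a1 in the whole class stood at 912 CPM in P301S/EKO (122 UMIs), 841 CPM in P301S (240 UMIs), 779 CPM in EKO (124 UMIs) and 883 CPM in WT (390 UMIs). Its ratios lay between 0.883 (0.715 to 1.08, EKO over WT) and 1.17 (0.904 to 1.52, P301S/EKO over EKO). In the endothelial cluster of the finer clustering, Slc2a1 stood at 1469, 1257, 1388 and 1105 CPM in P301S/EKO, P301S, EKO and WT, and EKO over WT was 1.26 (1.01 to 1.55), so that this direction turned. The lactate carrier Slc16a1 varied more, with 157 CPM in P301S/EKO (21 UMIs), 109 CPM in P301S (31 UMIs), 81.7 CPM in EKO (13 UMIs) and 190.2 CPM in WT (84 UMIs). WT was the highest and EKO the lowest. P301S over WT was 1.75-fold lower (1.15 to 2.74) and EKO over WT was 2.33-fold lower (1.29 to 4.55), while P301S/EKO over EKO was 1.92-fold higher (0.918 to 4.18). In the finer endothelial cluster, of 51, 76, 55 and 115 nuclei, Slc16a1 stood at 181, 134, 105 and 242 CPM in the same order of libraries; P301S over WT was 1.81-fold lower (1.14 to 2.95), EKO over WT 2.30-fold lower (1.15 to 5.21) and P301S/EKO over EKO 1.72-fold higher (0.705 to 4.46).

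In endothelial cell-like nuclei Slc16a1 was, of 8 measured genes, the 1 past 1.5-fold in P301S over WT, where 13.6% of all genes were higher and 18.0% lower, and in EKO over WT, where 14.3% were higher and 19.5% lower. For P301S/EKO over EKO 3 of 7 were higher (Hk1, Pfkp and Slc16a1, each with an interval that includes 1), against 16.6% higher and 15.7% lower of all genes. In P301S/EKO over P301S, 0 of 7 were past 1.5-fold, against 16.7% and 14.8%. Bsg, which encodes basigin, the partner protein that brings MCT1 to the membrane, was also lowest in EKO in this class, at 5877 CPM in P301S/EKO, 3868 CPM in P301S, 2734 CPM in EKO and 5708 CPM in WT. EKO over WT was 2.09-fold lower (1.89 to 2.32) and P301S/EKO over EKO 2.15-fold higher (1.91 to 2.42) for Bsg, and in the finer endothelial cluster these were 1.56-fold lower (1.40 to 1.74) and 1.99-fold higher (1.76 to 2.25). Neuronal transcripts in this class summed to 8562, 6426, 10060 and 12470 CPM in P301S/EKO, P301S, EKO and WT, and without mixed nuclei Slc16a1 stood at 167, 123, 98.7 and 248 CPM.

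Among neuron-like nuclei, carriers were higher in P301S over WT in the CA1 and the CA2 or CA3 classes. This was not so in all neurons: in dentate granule neuron-like nuclei Slc2a1 had 4 UMIs in P301S and 32 in WT (2.19-fold lower, 0.777 to 8.52) and Ldha was 1.70-fold lower (0.978 to 3.15), where 18.9% of all genes were higher and 12.4% lower. In subicular or cortical excitatory neuron-like nuclei Slc2a1 and Slc2a3 were within 1.5-fold, but Slc16a1 was past it there too. With Hk1 that made 2 higher and 0 lower of 8 measured genes, against 13.9% and 5.36% of all genes. In CA1 neuron-like nuclei Slc2a3 stood at 96.1 CPM in P301S and 57.6 CPM in WT (1.67-fold, 1.28 to 2.18), Slc2a1 at 26.5 CPM in P301S and 14.9 CPM in WT (1.78-fold, 1.04 to 3.01), and Slc16a1 at 30.4 CPM in P301S and 17.8 CPM in WT (1.71-fold, 1.04 to 2.77). Among nuclei of CA2 or CA3 type, Slc2a3 stood at 86.4 CPM in P301S and 52.1 CPM in WT (1.66-fold, 1.18 to 2.32), and Slc2a1 at 36.5 CPM in P301S and 20.4 CPM in WT (1.79-fold, 1.04 to 3.06). That made 3 higher and 0 lower of 8 measured genes in each class, counting Slc16a1 in CA2 or CA3, against 17.8% higher and 5.17% lower of all genes in CA1 and 19.4% and 5.80% in CA2 or CA3. The median gene of both classes was itself shifted by 0.20 on the log2 scale in P301S over WT, so part of each fold is shared with all genes. RNA of other cells was higher too: the 13 homeostatic microglia transcripts summed to 157 CPM in P301S and 74.2 CPM in WT in CA1. In CA2 or CA3 they summed to 143 CPM in P301S and 79.6 CPM in WT. Slc2a1 was far more abundant in endothelial cell-like nuclei (854 CPM on average), and the part of such RNA in these ratios was not tested. The CA1 class joins a larger cluster and another led by Dcn and Gh, and the Dcn cluster held 29.9% of the class in P301S and 13.4% in WT. Slc2a3 was 1.44-fold higher (1.03 to 1.99) within the larger cluster, under the 1.5-fold limit, and 1.86-fold (1.11 to 3.18) within the Dcn cluster, clusters that were read apart after the values were seen. Within the larger cluster Slc2a1 was 1.735-fold (0.91 to 3.23) and Slc16a1 1.73-fold higher (0.952 to 3.06), both with intervals that include 1. In P301S/EKO over EKO, 0 of 8 genes was past 1.5-fold in either class, against 7.90% higher and 5.27% lower of all genes in CA1 and 8.42% and 7.34% in CA2 or CA3; Slc2a3 stood at 78.4 CPM in P301S/EKO and 70.4 CPM in EKO in CA1.

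Further differences with intervals that leave out 1 were found in other classes and comparisons. In oligodendrocyte-like nuclei Ldha stood at 51.7 CPM in P301S and 89.6 CPM in WT (1.73-fold lower, 1.02 to 3.12) and Ldhb at 97.2 CPM in P301S and 158 CPM in WT (1.62-fold lower, 1.10 to 2.46), where 14.3% of all genes were higher and 14.9% lower. Mixed nuclei made up 57.6% of that class in P301S and 62.6% in WT, and their part was not tested beyond leaving them out, which gave 3.65-fold lower for Ldhb. That value rests on 5 Ldhb UMIs in P301S (50.5 CPM, 16.4 to 118) and 49 in WT (184 CPM, 136 to 244). Ldha then had 5 UMIs in P301S (50.5 CPM, 16.4 to 118) and 24 in WT (90.3 CPM, 57.9 to 134). Ldhb in oligodendrocyte-like nuclei was also 1.53-fold lower in EKO over WT (1.04 to 2.32), where 14.6% of all genes were lower. Hk1 was 1.51-fold higher in P301S over WT in subicular or cortical excitatory neuron-like nuclei (1.10 to 2.08), with 13.9% of all genes higher and 5.36% lower, and 1.51-fold higher in EKO over WT in CA2 or CA3 neuron-like nuclei (1.07 to 2.13), with 6.33% higher and 10.0% lower. Slc16a1 was 1.57-fold higher in EKO over WT in CA1 neuron-like nuclei (1.03 to 2.41), with 7.38% higher and 8.35% lower. Pfkp was 1.5-fold higher in P301S/EKO over P301S in inhibitory neuron-like nuclei (1.16 to 1.94), at 153 CPM in P301S/EKO and 102 CPM in P301S, with 5.41% of all genes higher and 15.0% lower.

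Summed over all kept nuclei, Hk2 stood at 29.7 CPM in P301S/EKO, 60.4 CPM in P301S, 10.1 CPM in EKO and 13.7 CPM in WT, and P301S over WT was 4.40-fold (3.67 to 5.28), more than the 2.68-fold within microglia-like nuclei. Microglia-like nuclei made up 6.50%, 11.3%, 2.70% and 4.07% of kept nuclei in the same order. In such a sum, more cells of a type and more RNA per cell cannot be told apart. Slc2a5 over all kept nuclei stood at 4.57, 4.14, 6.07 and 7.95 CPM, and P301S over WT was 1.92-fold lower (1.27 to 2.98).

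A list of 59 further genes of sugar metabolism was read in the same way; like the 10 genes, it was drawn up with results of these data known. In microglia-like nuclei P301S over WT had 40 measured genes, 6 higher and 4 lower (18.9% and 8.61% of all genes), with a median log2 ratio of -0.07, where all genes had 0.08. Slc16a3, the lactate exporter MCT4, had 25 UMIs in P301S (17.8 CPM) and 3 in WT (2.96 CPM), which is 6.03-fold (1.84 to 31.2). Hk3, a hexokinase of blood and immune cells, had 22 UMIs in P301S (15.7 CPM) and 3 in WT (2.96 CPM), which is 5.30-fold (1.59 to 27.7). Pfkfb3, which makes the activator of phosphofructokinase, had 22 UMIs in P301S and 4 in WT, which is 3.98-fold (1.35 to 15.9). Pygb, the brain glycogen phosphorylase, was 2.12-fold lower (1.29 to 3.55). By group, 3 of 7 measured genes of hexose phosphorylation and phosphofructokinase were higher and 0 lower. Of 8 in lower glycolysis 0 were higher and 1 was lower, Aldoa, an aldolase named here after its value was seen (1.54-fold lower, 1.38 to 1.72).

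In EKO over WT, 9 of 28 measured genes of the list were lower and 2 higher in microglia-like nuclei (18.7% and 11.6% of all genes), where all genes had a median log2 ratio of -0.02 and the list -0.13. Of 7 genes of lower glycolysis 6 were lower: Aldoc, the aldolase of astrocytes and some neurons, stood at 52.7 CPM in EKO and 159 CPM in WT (3.01-fold lower, 1.83 to 5.30), and Gapdh, a glycolytic dehydrogenase, at 199 CPM in EKO and 372 CPM in WT (1.88-fold lower, 1.44 to 2.48). Neuronal transcripts were lower in the same direction, as given above, and their part was not tested. In P301S/EKO over EKO, 4 of 27 were higher and 3 lower (15.5% and 9.95% of all genes); Aldoc stood at 187 CPM in P301S/EKO and 52.7 CPM in EKO (3.55-fold, 2.15 to 6.26). EKO thus had the lowest Aldoc of these 3 libraries. Neither direction was particular to microglia-like nuclei. Aldoc in P301S/EKO over EKO was 2.31-fold in CA1, 2.75-fold in CA2 or CA3 and 2.08-fold in all neuron-like nuclei, and 1.84-fold over all kept nuclei. In EKO over WT it was 1.85-fold lower in CA1 and 2.16-fold lower in CA2 or CA3 neuron-like nuclei. Gapdh was 1.65-fold lower in EKO over WT in dentate granule neuron-like nuclei. A change particular to microglia was not tested.

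In astrocyte-like nuclei P301S over WT had 25 measured genes of the list, 6 higher and 3 lower (23.6% and 17.8% of all genes), with a median log2 ratio of 0.21 and 0.12 for all genes. Of 4 measured glycogen genes 2 were higher and 0 lower: Pygb had 61 UMIs in P301S (231 CPM) and 54 in WT (101 CPM), which is 2.29-fold (1.56 to 3.36), and Pygm, the muscle-type phosphorylase, had 13 in P301S and 10 in WT, which is 2.63-fold (1.07 to 6.70). Pygb was also 1.81-fold higher in P301S/EKO over EKO (1.19 to 2.79) and 1.58-fold higher in EKO over WT (1.00 to 2.46). Eno1, an enolase, stood at 89.3 CPM in P301S/EKO, 272 CPM in P301S, 187 CPM in EKO and 101 CPM in WT, and was 2.70-fold higher in P301S over WT (1.87 to 3.91) but 2.09-fold lower in P301S/EKO over EKO (1.22 to 3.69). The lower Eno1 of P301S/EKO was seen in other classes too. Over EKO it was 1.84-fold lower in microglia-like and 1.56-fold lower in CA1 neuron-like nuclei. Over P301S it was 2.88-fold lower in endothelial cell-like and 1.75-fold lower in inhibitory neuron-like nuclei. Eno2, the enolase of neurons, was 1.95-fold lower in P301S over WT (1.15 to 3.48) and 2.08-fold lower in EKO over WT (1.16 to 4.00), beside the lower neuronal RNA of both libraries. In P301S/EKO over EKO, 6 of 20 were higher and 1 lower (18.9% and 15.4% of all genes), with a median log2 ratio of 0.32 and 0.02 for all genes; besides Pygb these included Pgam1 (1.87-fold, 1.07 to 3.36) and Gapdh (1.55-fold, 1.17 to 2.05), both enzymes of lower glycolysis.

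Across 49 sums of nuclei by class and library, the genes with the pattern most like each of the 10 were sought among 11112 genes by Pearson's r of log2(CPM + 10), as a description; the sums share libraries, depths and classes. For Slc2a5 they were P2ry13 (0.909), Gpr34 (0.877) and Tmem119 (0.861), which are all genes of homeostatic microglia. For Hk2 they included Rhoh (0.930) and Hmha1 (0.919). In P301S over WT, P2ry13, Gpr34 and Tmem119 were 2.06-fold, 1.75-fold and 2.44-fold lower in microglia-like nuclei, beside 4.20-fold for Slc2a5. In P301S/EKO over EKO they were 1.19-fold, 1.24-fold and 1.25-fold lower, beside 3.54-fold for Slc2a5. For Slc2a1 they were Flt1 (0.938), Crip1 (0.934) and Tagln2 (0.932), for Slc2a3 Thy1 (0.838), Pacsin1 (0.835) and Grin1 (0.811), and for Ldhb Clu (0.874), Id2 (0.874) and Ckb (0.869). The highest r was 0.692 for Hk1 (Hnrnpu) and 0.664 for Pfkp (Rmst), and 0.844 for Pkm (Atp5b), 0.774 for Ldha (Crip2) and 0.880 for Slc16a1 (Dazap2).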

How the data were processed

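Nuclei from frozen, pooled hippocampi were sequenced as 10x 3′ libraries. The deposited matrices hold UMI counts per gene and barcode, made by the authors with Cell Ranger and Seurat on mm10, per the submitters' processing notes. Tool versions and the handling of introns and strand are unstated in the labels and notes. The libraries held 3156 to 6767 barcodes and 8369762 to 14251675 UMIs.

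A barcode needed 200 or more genes and no more than 5% mitochondrial UMIs, and those with the highest scrublet scores were removed at 0.8% per 1000 barcodes, since scrublet's own threshold marked 0 or 1 per library. Counts were scaled to 10000 and clustered (2000 variable genes, 30 principal components, 15 neighbours, Leiden resolution 1; scanpy 1.11.5, igraph 0.11.9, Python 3.11.15) without the 10 genes and the sugar metabolism list. Clusters were named from 18 marker sets, and UMIs were summed per class and library. Intervals are exact Poisson or conditional binomial intervals at 95% (scipy 1.17.1), which cover counting error only; mice were pooled, so the spread between animals could not be measured.

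A ratio counted as higher or lower at 1.5-fold or more, with at least 20 UMIs over both libraries and at least 40 nuclei of the class in each. Ratios were named where the interval also left out 1, for Slc2a5 in microglia always, and for up to 4 genes of the list per comparison and class. Only the intervals of the ratios and the fold limit were tested on simulated data, drawn as Poisson counts. That simulation held no clustering, RNA of other cells or spread between animals, so it says nothing of these. The genes and lists were chosen with earlier results of these data known. Gene positions are from GENCODE on GRCm38. Alternatives changed the scaling, the filters, doublet removal, the clustering and the treatment of RNA from other cells. A gene that the rule on likeness also names is not reported here.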

Additional observations from a re-analysis of the deposited data

Results flagged for a closer look

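In each of the following, a ratio lay past 1.5-fold in opposite directions in the same contrast on different backgrounds; the differences themselves were not tested, because each genotype had 1 library. In endothelial cell-like nuclei the P301S over WT ratio of Slc16a1 was 0.571 (1.75-fold lower), and its P301S/EKO over EKO ratio was 1.92. At a finer clustering 42.3% of that class in P301S, 29.5% in WT, 49.0% in P301S/EKO and 54.6% in EKO was fibroblast-like, and in the finer endothelial cluster the same ratios were 0.554 and 1.72. In astrocyte-like nuclei the P301S over WT ratio of Eno1 was 2.70, and its P301S/EKO over EKO ratio was 0.478 (2.09-fold lower). The same gene in those nuclei had an EKO over WT ratio of 1.85 and a P301S/EKO over P301S ratio of 0.328 (3.05-fold lower). Eno1 was lower in P301S/EKO in other classes too, such as microglia-like nuclei, with ratios of 0.544 over EKO and 0.651 over P301S. In microglia-like nuclei the EKO over WT ratio of Pygb was 0.658 (1.52-fold lower), and its P301S/EKO over P301S ratio was 1.66. Ratios that share a library share its error.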

How the results depend on the processing

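No paired analysis was possible because each genotype had 1 library. For Slc2a5 in microglia-like nuclei, P301S over WT was 0.120 with free RNA subtracted and 0.148 per UMI of the microglia markers, both lower still, and EKO over WT was 0.596 and 0.687 under the same settings, which turned its direction. For Hk2, EKO over WT came to 0.780 with free RNA subtracted, 0.948 without mixed nuclei and 0.873 per marker UMI, the opposite of its direction with all nuclei. For counts of gene and class pairs, P301S over WT had 11 lower with equal weight per nucleus or without mixed nuclei, and 19 higher and 11 lower with a minimum of 1 UMI. P301S/EKO over EKO had 4 higher and 2 lower with at least 500 genes per nucleus, 4 higher with at least 1100 UMIs, and 19 higher and 5 lower with a minimum of 1 UMI. EKO over WT had 4 lower with no doublets removed, and 13 higher and 17 lower with a minimum of 1 UMI. P301S/EKO over P301S had 1 lower with median-of-ratios scaling, and 13 higher and 14 lower with a minimum of 1 UMI. The cause was not tested, except that a lower minimum lets in more pairs. Shares of all gene and class pairs were not computed under these settings, so the counts cannot be set against all genes. Of 212 values for 26 other named ratios, 198 stayed near the value reported, 11 moved and 3, the Hk2 ratios above, turned direction. Free RNA subtraction was run for glial classes only, so it gave no counts of pairs. A split of microglia-like nuclei by the whole disease list was not used, since 0 to 3 nuclei per library lacked a UMI of it. Slc2a5 had 27 UMIs in microglia-like nuclei of each library with P301S, so its ratios rest on few counts.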
